A study of Mus musculus with 28 samples.

Results

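H3K27ac, the acetylation of histone H3 at lysine 27, was compared at day 4 between mesodermal cultures that kept Brg1 and cultures in which Brg1 had been deleted. Every region called for this mark entered. Control replicates 1 and 2 held 37590 and 41062 regions, and 4-OHT replicates 1 and 2 held 36000 and 32161. These are 146813 of the 236604 regions in the 17 lists of the series, which also cover FLAG-tagged Brg1, H3K27me3 and Suz12. Regions of the 4 lists that shared at least 1 bp were merged into 56584 regions. A merged region was called lost when both control lists and neither 4-OHT list held it, kept when all 4 lists held it, and gained when both 4-OHT lists and neither control list held it. Any other pattern was called mixed.

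Both conditions came from one line of mouse embryonic stem cells (ESCs), Brg1 f/f;Actin-CreER, in which the Brg1 alleles are floxed and a Cre recombinase that 4-hydroxytamoxifen (4-OHT) activates is expressed constitutively. After 2 days as serum-free embryoid bodies the cells were reaggregated for 40 h with VEGF, activin A and BMP4. From day 2, the deleted cultures received 200 nM 4-OHT in tetrahydrofuran (THF) and the control cultures THF alone, so the control cells carried the floxed alleles and the Cre too. An effect of 4-OHT or of active Cre that does not pass through Brg1 cannot be told apart from the deletion in these 4 samples. The cultures were used whole, so fewer cells of a type and less acetylation per cell cannot be told apart either.

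H3K27ac is found at active promoters and at active enhancers, the distal elements that drive tissue-specific expression. Brg1, the product of Smarca4, is the ATPase of BAF complexes, which slide or evict nucleosomes. Mesoderm forms in the primitive streak under Wnt, Nodal and BMP signals, through T-box factors such as T and Eomes and then Mesp1. The label was checked at the promoters of marker genes. H3K27ac was listed at 8, 8, 9 and 9 of 10 mesoderm promoters in control 1, control 2, 4-OHT 1 and 4-OHT 2, with Kdr, a receptor of early mesoderm, in no list. None of 5 neural marker promoters was listed, but of 15 genes in the longer neural list used below, 3 promoters were in all 4 lists and 11 in none. The undifferentiated markers were listed at 4, 3, 4 and 4 of 5 promoters, and the endoderm markers at 2, 2, 1 and 2 of 6.

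To show what such regions look like, 200 bp of 6 of them are given from the mm9 reference genome, 5′ to 3′ on the plus strand. Capitals mark short consensus letters that were searched on both strands of the central 500 bp of every merged region. The first stretch lies in a lost region upstream of the 5′ end of Cxcr4, a chemokine receptor of migrating mesoderm, and holds the T-box letters AGGTGTG. The second is a lost intergenic region at Eomes with the T-box letters and the Foxh1 letters AATCCAC, and the third a lost intronic region of Magi1, a junction scaffold, with the GATA letters AGATAAG. They are followed by kept regions at Eomes and Rbpms, an RNA-binding protein, and by a gained region at Gadd45g, a stress-response gene. These last 3 hold the AP-1 letters TGACTCA, in which Jun and Fos factors bind.
Cxcr4 promoter, lost (chr1:130489245-130489444): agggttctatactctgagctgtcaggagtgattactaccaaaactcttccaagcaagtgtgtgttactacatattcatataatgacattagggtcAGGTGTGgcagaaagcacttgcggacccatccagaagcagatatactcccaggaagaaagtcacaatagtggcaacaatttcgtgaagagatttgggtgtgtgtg
Eomes, intergenic, lost (chr9:118353863-118354062): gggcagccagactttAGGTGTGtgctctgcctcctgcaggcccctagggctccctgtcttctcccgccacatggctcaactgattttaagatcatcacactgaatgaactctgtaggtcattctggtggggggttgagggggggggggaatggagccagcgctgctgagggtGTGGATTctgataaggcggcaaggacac
Magi1 intron, lost (chr6:94215075-94215274): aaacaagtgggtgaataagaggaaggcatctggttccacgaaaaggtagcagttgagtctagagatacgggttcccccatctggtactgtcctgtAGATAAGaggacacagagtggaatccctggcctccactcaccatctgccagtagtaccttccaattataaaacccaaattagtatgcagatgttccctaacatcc
Eomes, intergenic, kept (chr9:118293667-118293866): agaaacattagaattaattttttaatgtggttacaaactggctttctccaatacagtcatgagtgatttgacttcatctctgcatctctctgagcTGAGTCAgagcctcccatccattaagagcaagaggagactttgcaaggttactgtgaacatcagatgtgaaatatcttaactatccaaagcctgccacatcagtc
Rbpms intron, kept (chr8:34952263-34952462): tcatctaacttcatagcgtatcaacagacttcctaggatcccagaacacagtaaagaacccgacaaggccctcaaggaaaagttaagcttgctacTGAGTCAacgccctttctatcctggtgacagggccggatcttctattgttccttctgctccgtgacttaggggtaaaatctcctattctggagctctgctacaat
Gadd45g, intergenic, gained (chr13:51948691-51948890): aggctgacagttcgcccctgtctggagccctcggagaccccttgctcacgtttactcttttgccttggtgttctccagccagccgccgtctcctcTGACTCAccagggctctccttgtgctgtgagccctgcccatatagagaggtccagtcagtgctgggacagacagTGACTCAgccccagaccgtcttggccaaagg

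The Cxcr4 region covered 850 and 900 bp in control 1 and 2, the lost Eomes region 275 and 1125 bp, and the Magi1 region 2150 and 2300 bp, with no region in either 4-OHT list. The gained Gadd45g region covered 1450 and 250 bp in 4-OHT 1 and 2, with no region in either control list. The kept Eomes region covered 1775 and 2575 bp in the controls against 1400 and 1675 bp after 4-OHT, and the kept Rbpms region 2000 and 2500 bp against 2325 and 2300 bp. Over all 35808 distal merged regions, 14.9% held the AP-1 letters, 11.8% the T-box letters, 7.84% the GATA letters and 6.52% the Foxh1 letters. None of these words contains another, and a match is a description of the sequence, not a binding site.

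The lists hold positions only, so read depth is unknown and covered length stands in for signal. They covered 28.0 and 30.8 Mb in the controls and 28.5 and 26.1 Mb after 4-OHT, at median widths of 400 to 425 bp, and 8.92 to 10.5% of the regions of each list were at most 50 bp wide. Control 2 stood apart from the other lists. It alone held 10172 merged regions, whereas control 1 alone held 2439, 4-OHT 1 alone 7769 and 4-OHT 2 alone 3143. Because of this, the class counts, territory summaries, gene lists and windows are given below also against control 1 by itself, whereas counts of regions per gene, neighbours and runs rest on both controls.

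Deletion of Brg1 went with loss of distal regions, while promoter regions were mostly kept. Of the merged distal regions, which lay more than 2.5 kb from any of 86842 transcriptional start sites, 4600 were lost, 7355 kept and 1364 gained. Most distal regions, 22489 of 35808, were mixed and so fell in none of these classes. Of the promoter regions, 811 were lost, 11369 kept and 741 gained, and 7855 of 20776 were mixed. Distal covered length was 11.4 and 14.3 Mb in the controls and 10.2 and 8.81 Mb after 4-OHT, a ratio of 0.740 without overlap between the groups (exact permutation test, two-sided p = 0.33, the smallest that 2 lists against 2 allow). Promoter covered length was 16.6 and 16.5 Mb against 18.3 and 17.3 Mb, a ratio of 1.08 that also did not overlap (exact permutation test, p = 0.33). Replicates of 1 condition differed too. Control 2 held 76.0% of the distal regions of control 1, and control 1 held 59.7% of those of control 2. Of the distal regions of control 1, 4-OHT 1 and 2 held 58.0% and 56.0%, and of those of control 2, 36.9% and 39.0%. The lost, kept and gained classes depend on how many lists define them. Against control 1 alone 7648 distal regions were lost and 1635 gained, and against control 2 alone 13203 and 2896. With only 4-OHT 2, or only 4-OHT 1, against both controls, 5252 and 5589 distal regions were lost and 3864 and 6982 gained, so the excess of lost over gained regions ended when 4-OHT 1 stood alone.

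**Figure D1:**
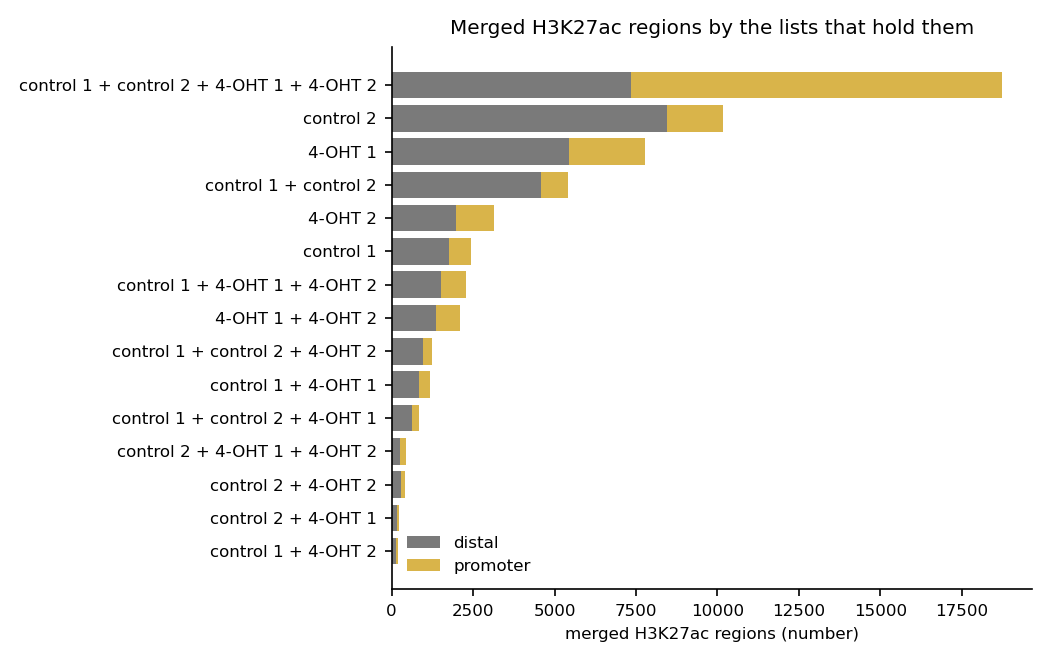
Number of merged H3K27ac regions (horizontal axis) for each combination of lists that held them (vertical axis), with distal regions in grey and promoter regions in yellow. The largest set, in all 4 lists, holds 18724 regions of which 11369 lie at promoters, whereas the set of both controls alone holds 5411 of which 811 do.

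Kept promoter regions were more often wider than narrower after 4-OHT, while kept distal regions went both ways. The median width of kept distal regions was 875 and 825 bp in the controls and 800 and 750 bp after 4-OHT. The 2 groups did not overlap at 2381 of 7355 kept distal regions in the lower direction (32.4%) and at 1878 in the higher (25.5%). Kept promoter regions had medians of 1125 and 1075 bp in the controls and of 1225 and 1175 bp after 4-OHT. Of these 11369 regions, 1419 were narrower without overlap (12.5%) and 4494 were wider (39.5%). In sum the kept distal regions covered 8.36 and 8.39 Mb in the controls and 7.73 and 7.50 Mb after 4-OHT, and the kept promoter regions 15.9 and 15.4 Mb against 17.2 and 16.7 Mb. Lost distal regions covered 1.46 Mb in control 1 and 2.83 Mb in control 2, so control 2 held the larger part of the bases counted as lost. Gained distal regions covered 0.388 and 0.277 Mb.

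The 5 lost distal regions with the greatest mean covered length in the controls had 1975 to 3075 bp in control 1 and 2625 to 3600 bp in control 2, and the nearest genes were Cdc5l, a splicing factor, 1110008E08Rik, Chl1, a neural adhesion molecule, Rhob, a small GTPase, and AI848100. At the promoter of Pdgfrb, the receptor of platelet-derived growth factor on mesenchymal cells, a region covered 2000 and 3125 bp in the controls and none was listed after 4-OHT. Lost regions at annotated start sites near Gna14, a G protein subunit, had 1450 and 3625 bp, and near Igfbp2, which binds insulin-like growth factors, 2600 and 2325 bp. Ranked likewise by mean covered length after 4-OHT, the first gained distal region, in an intron of Ctcf, the insulator protein, had 1375 and 575 bp, and the first gained promoter region, 7.15 kb from the 5′ end of Ptbp1, a splicing repressor, 1350 and 1025 bp.

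To ask which genes lost or gained H3K27ac, each base was given to the nearest protein-coding 5′ end within 100 kb, and the covered length in this territory was compared. With limma and Benjamini-Hochberg adjustment, none of 7833 tested territories passed an adjusted p of 0.05 in either direction (0% lower and 0% higher). The smallest adjusted p was 0.085, and 1044 territories were lower and 930 higher at an unadjusted p under 0.05. In limma fits on lengths scaled to each list's total, 318 territories passed as lower and 111 as higher, and on numbers of regions 539 and 337 did. The 2 groups did not overlap at 1924 territories in the lower direction (24.6%) and at 2884 in the higher (36.8%). The median difference was 0.074 on the log2 scale of covered length plus 500 bp, with 5% of territories below -1.10 and 5% above 0.64, so that the lower side reached further while more territories lay slightly above 0. Against control 1 alone, 28.6% of the territories were shorter in both 4-OHT lists and 44.8% longer, with a median of 0.054.

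Among the territories whose groups did not overlap, the 10 lowest had 2875 bp or less in each 4-OHT list. Olfm1, a secreted olfactomedin, had 5725 and 9750 bp in the controls and 200 and 375 bp after 4-OHT, a log2 difference of -3.35 ± 0.30 (SE). Igsf3, a membrane protein of the immunoglobulin superfamily, had 5700 and 9500 bp against 450 and 150 bp, a difference of -3.32 ± 0.33. In the territory of Cxcr4, 11575 and 21925 bp in the controls stood against 750 and 2875 bp after 4-OHT, a difference of -3.00 ± 0.62. Choosing among territories without overlap put both 4-OHT lists below both controls. None of these 3 passed the threshold (adjusted p from limma of 0.085, 0.085 and 0.12). Some length was also left after 4-OHT at Rpl36-ps3, a ribosomal pseudogene (4325 and 6906 bp against 50 and 300 bp), and Ccr7, a chemokine receptor (2125 and 7350 bp against 0 and 75 bp). Lhfp, Gm10845, Cttnbp2, which binds cortactin, and Zcchc24 were also among the 10 lowest, with 2025 to 2450 bp in control 1, 4725 to 6125 bp in control 2 and no region in either 4-OHT list. They reached the mean of 1000 bp needed for testing through the control lists alone.

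The 10 highest territories, drawn likewise from those without overlap, differed by less than the 10 lowest. Arap1 had 400 and 25 bp in the controls and 2975 and 975 bp after 4-OHT, a log2 difference of 1.72 ± 0.55 (SE). Dda1, a component of a Cul4 ubiquitin ligase, had 725 and 475 bp against 3000 and 2400 bp, a difference of 1.54 ± 0.18. Sel1l, which acts in degradation from the endoplasmic reticulum, had 400 and 250 bp against 1925 and 1750 bp, a difference of 1.51 ± 0.17. This choice put every 4-OHT list above every control list. The adjusted p-values of these 3 from limma were 0.18, 0.087 and 0.085. Il34, a ligand of the Csf1 receptor, had 900 and 1525 bp against 4975 and 3375 bp, Cd69, a lymphocyte activation receptor, 450 and 175 bp against 2200 and 1750 bp, and Rab24, a small GTPase, 1328 and 578 bp against 3878 and 3028 bp. S100a6, a calcium-binding protein, had 475 and 0 bp in the controls and 2825 and 925 bp after 4-OHT. Rap1gap2, 4930518I15Rik and 4933428G20Rik made up the rest, at differences of 1.66, 1.60 and 1.43. Counted as number of regions in place of length, the territory of Cd69 was lower (-0.21).

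**Figure D2:**
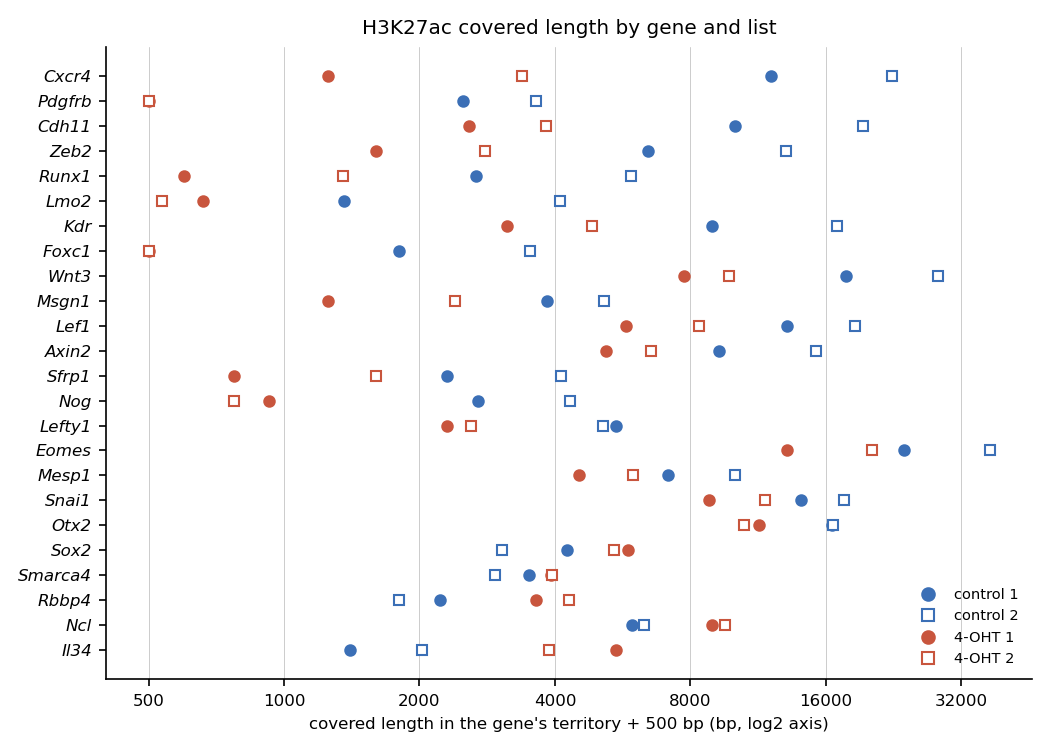
Covered H3K27ac length plus 500 bp in the territories of 24 genes (vertical axis) on a log2 axis in bp, with control replicates in blue and 4-OHT replicates in red. From Cxcr4 down to Otx2 both red symbols lie left of both blue symbols, and from Sox2 to Il34 they lie right of them. The genes were picked from those named in the text, all without overlap between the groups, so the separation reflects the choice. Named genes whose groups overlapped, such as Pdgfra, Gata6 and Msx1, are not shown. Among all tested territories 24.6% were lower and 36.8% higher without overlap.

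Several lost regions at one gene were more frequent than several gained ones. At least 1 distal lost region lay in 2126 territories, a kept one in 3783 and a gained one in 1021. At least 5 distal lost regions lay in 36 territories, 5 kept in 102 and 5 gained in 5. Of the 702 territories with 2 or more distal lost regions, 342 had no distal kept region, and 159 of these still had a kept region at a promoter. In 1138 territories the classified distal regions were all lost and in 2490 all kept, while 810 held both lost and kept regions without a gained one. Gained regions were the sole class in 480 territories and lay beside kept ones in 363.

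The most distal lost regions of any territory lay at Cxcr4 (ENSMUSG00000045382.6, chr1:130484776-130488870, minus strand), with 10 lost and 3 kept. The regions at its promoter covered 850 and 900 bp and 25 and 600 bp in the controls and were not listed after 4-OHT, and the first of them is shown in sequence above. The 3 kept regions, 31.3 to 59.7 kb downstream of the 5′ end, covered 1300 to 2550 bp in the controls and 200 to 1175 bp after 4-OHT. Eomes (chr9:118387330-118395250, plus strand), the T-box factor of the streak, had 8 distal lost and 6 distal kept regions, from 99.0 kb upstream to 8.50 kb downstream. Its territory covered 23425 and 36550 bp in the controls and 12625 and 19800 bp after 4-OHT (log2 difference -0.87 ± 0.33). The region over the Eomes 5′ end was kept at 5050 and 6875 bp against 2825 and 5275 bp, and an intergenic region 8.50 kb downstream at 4775 and 6175 bp against 4600 and 5675 bp. Cadm1, a cell adhesion molecule, had 8 lost and 2 kept distal regions, and Axin2, a feedback inhibitor of Wnt signaling, 7 lost and 1 kept. At Axin2 the kept regions at the promoter and 10.4 kb upstream covered 3175 and 3475 bp and 3400 and 3975 bp in the controls, and 2200 and 2925 bp and 2500 and 2775 bp after 4-OHT.

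The most distal kept regions lay at Rbpms, with 14 kept, 7 gained and 0 lost. Its territory was covered over 43800 and 44950 bp in the controls and 50350 and 43425 bp after 4-OHT, so the groups overlapped. Cxxc5, which binds unmethylated CpG, kept 11 and lost 1, and Myh9, the heavy chain of a non-muscle myosin, kept 10 and lost 0. Il34 followed Rbpms in gained regions, with 6 gained and 1 kept. The gained regions lay upstream of its 5′ end, in introns or exons of another annotated gene. The kept region 3.78 kb upstream covered 900 and 1525 bp in the controls and 2400 and 2200 bp after 4-OHT. Phf17, a PHD-finger protein of an acetyltransferase complex, held 5 distal gained regions beside 45 mixed ones, and its territory covered 11800 and 7325 bp against 25700 and 13650 bp.

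Gene lists of ribosomal, housekeeping, BAF and PRC2 genes had higher medians than all tested territories (0.074), and every other list had a lower one. The lower medians were thus not particular to the streak, its derivatives and the Wnt pathway. They included endoderm (-0.68), the other signaling pathways, pluripotency, neural and Hox genes, and reached 0.06 for the H3K27 acetylation list. None of the members passed the threshold, and for the members with no region in either 4-OHT list no difference is given, since the added 500 bp sets it. Tested members had a mean of at least 1000 bp over the 4 lists. Some, such as Lmo2, Foxc1 and Pdgfrb, reached it only through the control lists and could count only as lower. The same filter applied to all tested territories. Of 20 tested genes of the primitive streak and nascent mesoderm, 15 were lower without overlap and 1 was higher, beside 24.6% lower and 36.8% higher among all tested territories, and the median was -0.59. Their territories together covered 167 and 226 kb in the controls and 108 and 141 kb after 4-OHT, and against control 1 alone the median was -0.43. Wnt3, the Wnt ligand that starts the streak, had 17275 and 27950 bp against 7225 and 9225 bp (log2 difference -1.38 ± 0.29). Msgn1, a factor of presomitic mesoderm, had 3350 and 4650 bp against 750 and 1900 bp (-1.36 ± 0.38), and Lhx1, of head and node mesoderm, 11650 and 16125 bp against 6050 and 7750 bp (-0.95 ± 0.22). Mesp1, which specifies cardiac mesoderm, had 6650 and 9543 bp against 4025 and 5475 bp (-0.70 ± 0.25).

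**Figure D3:**
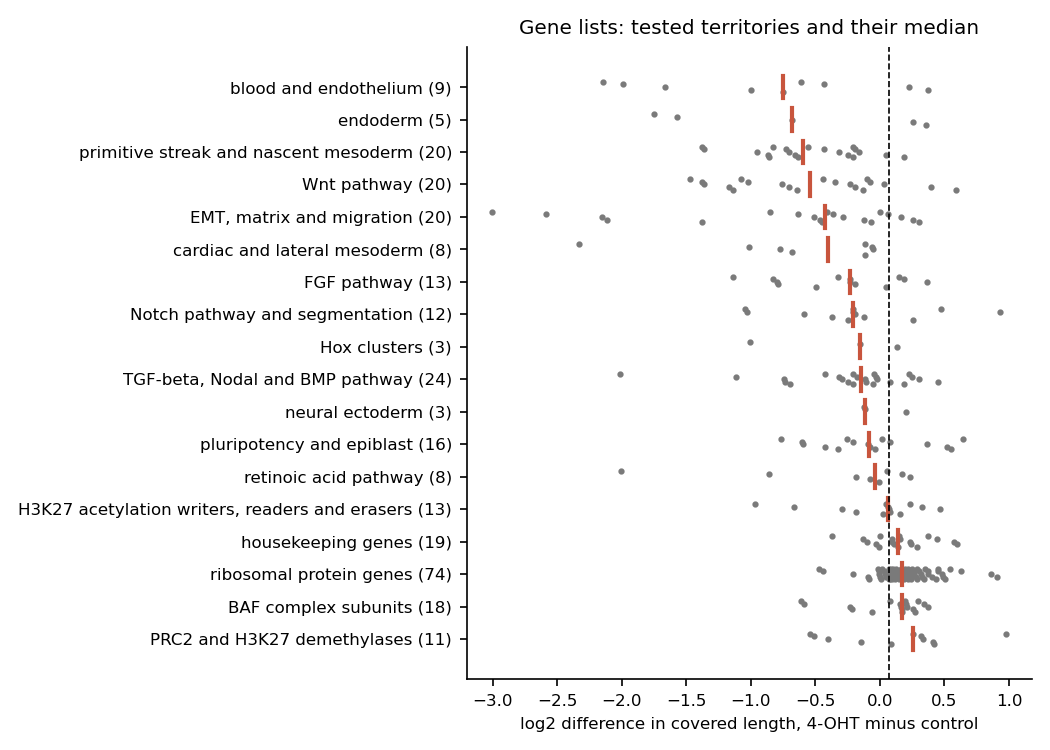
Log2 difference in covered length, 4-OHT minus control, of each tested territory (grey points) in 18 gene lists, with the number tested in brackets, the list median in red and the median of all tested territories as a dashed line at 0.074. List medians run from -0.75 for blood and endothelium to 0.26 for PRC2 and H3K27 demethylases.

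Of 9 tested genes of blood and endothelium, 7 were lower without overlap and none higher, with a median of -0.75 (-0.80 against control 1 alone). Among all tested territories 24.6% were lower and 36.8% higher. Runx1, the factor of blood stem cell emergence, had 2175 and 5400 bp in the controls and 100 and 850 bp after 4-OHT (log2 difference -2.14 ± 0.60). Lmo2, an adaptor of blood factors, had 860 and 3610 bp against 160 and 35 bp (-1.99 ± 0.62). For Kdr the values were 8450 and 16450 bp against 2625 and 4325 bp (-1.67 ± 0.42), and for Etv2, which drives endothelial fate, 3950 and 5375 bp against 1625 and 2575 bp (-1.0 ± 0.26). In each of them the smaller control value lay above the larger 4-OHT value. In the cardiac and lateral list 8 of 24 genes were tested, of which 2 were lower without overlap, a share close to the 24.6% of all territories. Foxc1, a forkhead factor of mesoderm, had 1300 and 3025 bp in the controls and no region after 4-OHT, and Gata4, a cardiac factor, 7900 and 9725 bp against 4125 and 6700 bp (-0.68 ± 0.27). Gata6, a factor of early endoderm and heart, with 9025 and 14650 bp against 4575 and 9200 bp, and Msx1, a homeobox factor, with 6925 and 12475 bp against 2650 and 7025 bp, overlapped between the groups. The list median was -0.40, and -0.27 against control 1 alone.

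Among 20 tested genes of epithelial-mesenchymal transition, matrix and migration, 11 were lower without overlap and 3 higher, with a median of -0.43 (-0.22 against control 1 alone). The shares of all tested territories were 24.6% lower and 36.8% higher. Besides Cxcr4, the lowest were Pdgfrb, described above, Cdh11, a mesenchymal cadherin, and Zeb2, a repressor of E-cadherin. Cdh11 had 9550 and 18825 bp against 2075 and 3325 bp (log2 difference -2.15 ± 0.41) and Zeb2 5950 and 12525 bp against 1100 and 2300 bp (-2.11 ± 0.48). Snai1, another such repressor, had 13625 and 17050 bp against 8300 and 11250 bp (-0.63 ± 0.21), and Has2, which makes hyaluronan, 12250 and 15800 bp against 9475 and 11350 bp (-0.41 ± 0.18). Sulf1, a heparan sulfatase, had 6825 and 7725 bp against 5725 and 6025 bp (-0.28 ± 0.11). Pdgfra, the receptor partner of Pdgfrb, overlapped between the groups, with 4475 and 8125 bp against 3125 and 5350 bp. Counted as number of regions, the differences of Snai1, Pdgfra and Gata4 were above 0, at 0.22, 0.24 and 0.39.

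Lists of 5 signaling pathways were counted in the same way, beside 24.6% lower and 36.8% higher without overlap among all tested territories. In the Wnt list 12 of 20 tested genes were lower without overlap and 2 higher (median -0.54, and -0.38 against control 1 alone), from 131.8 and 180.2 kb in the controls to 94.6 and 103.7 kb after 4-OHT. The ligand Wnt3 and the antagonist Sfrp1, which binds Wnt ligands and had 1800 and 3625 bp against 275 and 1100 bp (-1.47 ± 0.50), were the lowest. Nkd1, an inhibitor inside the cell, had 1525 and 3725 bp against 650 and 625 bp (-1.36 ± 0.40), Lef1, the nuclear effector, 12600 and 18100 bp against 5250 and 7875 bp (-1.17 ± 0.28), and Axin2 8750 and 14700 bp against 4700 and 6050 bp (-1.02 ± 0.30). Ligands, antagonists and effectors alike had members on the lower side. In the TGF-beta, Nodal and BMP list 12 of 24 were lower and 5 higher (median -0.15, and -0.08 against control 1 alone). Nog, an antagonist of BMP, had 2200 and 3825 bp against 425 and 275 bp (-2.01 ± 0.28), and Lefty1, an antagonist of Nodal, 4975 and 4625 bp against 1800 and 2100 bp (-1.12 ± 0.11). Lefty1 did not pass the threshold (adjusted p = 0.085, limma) and had a difference of 0.29 by number of regions. Smad5, which carries the BMP signal, had 3400 and 4750 bp against 2275 and 2125 bp, a difference of -0.75 that was 0.062 in a window of 50 kb on each side, and Pmepa1, an inhibitor of TGF-beta signaling, had 15996 and 19546 bp against 10446 and 10371 bp (-0.74 ± 0.13).

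Of 13 tested FGF genes 6 were lower without overlap and 3 higher (median -0.23), of 12 Notch genes 7 and 3 (-0.21), and of 8 retinoic acid genes 3 and 1 (-0.04). These counts stand beside 24.6% lower and 36.8% higher among all tested territories. Against control 1 alone these medians were -0.12, -0.11 and -0.07. Spry4, an inhibitor of FGF signaling, had 3055 and 5280 bp against 1455 and 1680 bp (log2 difference -1.13 ± 0.27), Etv4, a target of it, 2550 and 2925 bp against 1500 and 1150 bp, and Fgfr1, a receptor, 7025 and 9275 bp against 4500 and 4375 bp. Nrarp, a feedback inhibitor of Notch, had 9150 and 9800 bp against 4425 and 4250 bp (-1.04 ± 0.099), and Notch1, the receptor, 7125 and 10250 bp against 3925 and 3925 bp (-1.03 ± 0.20). The ligand Jag2 went the other way, with 1550 and 350 bp against 2100 and 1925 bp, a difference of 0.93 ± 0.47 that was -0.58 by number of regions. Cyp26a1 and Cyp26c1, which degrade retinoic acid and lie next to each other, had 5225 and 7350 bp against 2600 and 3900 bp (-0.86 ± 0.26) and 1500 and 3850 bp against 0 and 575 bp (-2.01 ± 0.58).

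Pluripotency genes went both ways, with 6 of 16 lower and 4 higher without overlap (median -0.08, and -0.04 against control 1 alone). For this and the next lists, the shares of all tested territories were 24.6% lower and 36.8% higher. Otx2, a factor of the epiblast, had 16025 and 16075 bp against 10850 and 10000 bp (log2 difference -0.60 ± 0.089), Sall4, a zinc-finger factor, 22075 and 26750 bp against 14550 and 17425 bp, and Tbx3, a T-box factor, 10025 and 18350 bp against 6675 and 9100 bp. Sox2, by contrast, had 3750 and 2550 bp in the controls and 5325 and 4925 bp after 4-OHT (0.64 ± 0.20). Of the endoderm list 5 of 16 genes were tested and 3 were lower without overlap (median -0.68, and -0.27 against control 1 alone), among them Cer1, an inhibitor of Nodal, at 1750 and 3575 bp against 650 and 400 bp, and Apoa1, an apolipoprotein, at 1575 and 2100 bp against 0 and 450 bp. Only 3 of 15 neural genes and 3 of 39 Hox genes were covered enough to be tested, with 1 and 0 lower and none higher. Their medians were -0.11 and -0.16, and 0.059 and -0.093 against control 1 alone, so that of the neural list changed sign.

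Ribosomal protein and housekeeping genes had more members on the higher side, as had all tested territories (36.8% higher and 24.6% lower). Of 74 tested ribosomal protein genes, 43 were higher without overlap and 2 lower (median 0.17, and 0.21 against control 1 alone), and their territories covered 271 and 297 kb in the controls and 324 and 335 kb after 4-OHT. Rpl6 had 2075 and 2500 bp against 4825 and 4625 bp (log2 difference 0.91 ± 0.12) and Rpl22 2100 and 1700 bp against 3725 and 3975 bp (0.86 ± 0.12). Of 19 housekeeping genes 13 were higher and 2 lower (median 0.14, and 0.13 against control 1 alone), among them Ncl, nucleolin, at 5425 and 5800 bp against 8425 and 9075 bp (0.60 ± 0.10), Npm1, nucleophosmin, at 3400 and 2975 bp against 4425 and 5600 bp, and Eef1a1, a translation factor, at 15225 and 13750 bp against 20500 and 19125 bp. By number of regions Eef1a1 was lower (-0.31). Of 18 BAF subunit genes 10 were higher and 5 lower (median 0.17, and 0.17 against control 1 alone), the lower share being no smaller than that of all territories. At Smarca4 itself 3000 and 2450 bp stood against 3425 and 3450 bp, a difference of 0.29 that was -0.29 by number of regions. This mark does not show whether the floxed exons were removed. Smarcd2, at 4425 and 5075 bp against 2925 and 3050 bp, and Dpf1, at 3625 and 4200 bp against 1900 and 2950 bp, were the lowest subunits, and both were above 0 by number of regions (0.45 and 0.75).

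Of 13 tested writers, readers and erasers of H3K27 acetylation 4 were higher and 3 lower, shares close to those of all tested territories (36.8% and 24.6%), with medians of 0.06 and, against control 1 alone, 0.04. The members with the largest differences are given as values. The erasers Hdac7, at 4075 and 5250 bp against 1150 and 3675 bp, and Hdac5, at 4350 and 4750 bp against 2675 and 2675 bp (log2 difference -0.67 ± 0.096), lay lower after 4-OHT, and the reader Brd2 lay higher, at 10019 and 8750 bp against 12950 and 13350 bp (0.47 ± 0.11, and -0.016 by number of regions). Of 11 genes of PRC2 and the H3K27 demethylases 6 were higher and 3 lower (median 0.26, and 0.07 against control 1 alone). The summed length of the whole list went the other way, with 57.9 and 63.0 kb in the controls and 57.2 and 57.1 kb after 4-OHT. Rbbp4, a histone-binding subunit, had 1726 and 1301 bp against 3126 and 3801 bp (0.98 ± 0.16), whereas Jarid2, a subunit that helps to recruit PRC2, had 13425 and 17675 bp against 9550 and 11450 bp (-0.54 ± 0.18).

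At the loci of mesoderm genes, lost regions lay beside kept but shorter ones. At Kdr, regions 48.1, 24.4 and 7.81 kb downstream and 23.8 and 44.9 kb upstream of the 5′ end were lost, with 150 to 600 bp in control 1 and 375 to 1800 bp in control 2. The wide region 28.6 kb upstream, over another annotated start site, was kept, at 5325 and 6625 bp in the controls and 2100 and 3800 bp after 4-OHT. At Wnt3, 4 intronic regions in the territory were kept but shorter in both 4-OHT lists. Those 67.2 and 85.6 kb downstream of the 5′ end lay past the end of Wnt3, in introns of another annotated gene. The region 32.7 kb downstream, within Wnt3, had 5925 and 8200 bp against 2500 and 3925 bp. The region 67.2 kb downstream had 1525 and 1650 bp against 25 and 200 bp, and each of these 4 overlapped FLAG regions in 2 lists. At Foxc1 all 4 regions called in both controls were lost, at 46.3, 13.5 and 12.6 kb upstream and 14.4 kb downstream. At Runx1 the region 2.24 kb upstream of the 5′ end had 1975 and 2350 bp in the controls and 0 and 850 bp after 4-OHT. Has2 kept its promoter region (4675 and 4875 bp against 4375 and 4675 bp), and its intronic region 8.89 kb downstream had 1200 and 1650 bp against 475 and 800 bp. At Mesp1 the region over the gene had 1875 and 3275 bp against 575 and 1325 bp, and the region 4.44 kb upstream 3625 and 3975 bp against 2450 and 3075 bp.

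Lost regions lay near lost ones along the chromosomes. Over the 13319 classified distal regions, 34.5% were lost, 55.2% kept and 10.2% gained. The nearest classified distal neighbour of a lost region was itself lost in 56.8% of cases, and in 69.8% where it lay within 10 kb. Beyond 50 kb this share was 40.0%, close to that of lost regions at large. For kept regions the neighbour was kept in 64.1%, and for gained regions it was gained in 22.0% overall and in 31.9% within 10 kb. These shares are a description without a test, and pieces of 1 broad region that a list breaks up count as neighbours. In the order of classified regions, promoters included, runs of at least 6 numbered 59 for lost, 1107 for kept and 1 for gained regions, of which there were 5411, 18724 and 2105 in all. The longest lost run, 14 regions in 980 kb, lay beside Cadm1 on chromosome 9 (chr9:46250976-47231225) and covered 7300 and 11975 bp in the controls. A run of 10 in 206 kb lay beyond Foxc2, a forkhead factor of lateral and lymphatic mesoderm, and 9 in 77.3 kb spanned Cxcr4. The gained run was of 7 regions in 20.4 kb between the 5′ ends of Il34 and Cog4 on chromosome 8, with 3225 and 1875 bp after 4-OHT.

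Over 1 Mb windows, H3K27ac covered length fell in 90 and rose in 14 of 937 tested windows (limma, adjusted p at most 0.05), which is 9.61% and 1.49%. The lowest window, at 105 Mb of chromosome 8 (chr8:105000001-106000000), holds Cdh11 and fell from 13.7 and 26.5 kb in the controls to 3.05 and 5.15 kb after 4-OHT, a log2 difference of -2.13 ± 0.29 (adjusted p = 0.0028, limma). Others were at 101 Mb of chromosome 3 with Igsf3 (14.9 and 23.5 kb against 7.33 and 3.88 kb), 94 Mb of chromosome 6 with Magi1 (12.2 and 23.1 kb against 5.00 and 5.90 kb), 130 Mb of chromosome 1 with Cxcr4 (20.6 and 33.2 kb against 8.60 and 10.3 kb) and 29 Mb of chromosome 14 with Wnt5a, a ligand of axial elongation (15.9 and 26.9 kb against 7.50 and 8.35 kb). Their log2 differences were -1.72, -1.54, -1.43 and -1.33. In the Magi1 window 13 distal regions were lost and 2 kept, and in the Cxcr4 window 12 were lost and 6 kept. Of the windows that rose, the highest lay at 88 Mb of chromosome 15, where Brd1, a subunit of histone acetyltransferase complexes, contributed most (16.2 and 11 kb against 24.6 and 19.3 kb, 0.69 ± 0.20, adjusted p = 0.042). A window at 9 Mb of chromosome 19 with Ahnak rose by 0.60 on the log2 scale.

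The windows that fell were gene-poor and distal, and those that rose were gene-rich. Windows that fell held a median of 7 protein-coding 5′ ends, those without a call 13 and those that rose 43.5. Promoter regions made up a median of 29.8% of control covered length in windows that fell, 60.2% in those without a call and 86.0% in those that rose. This share, and the lost, kept and gained regions below, come from the same lists that set each window's difference. The contrast is therefore a description that in part restates the distal and promoter totals. Windows that fell had medians of 18.3 and 26.7 kb in the controls and 12.3 and 12.2 kb after 4-OHT, and those that rose 60.9 and 59.4 kb against 79.6 and 73.5 kb. Windows that fell contained 623 distal lost, 591 kept and 43 gained regions, and those that rose 7, 108 and 49. FLAG regions of replicate 1 numbered a median of 9 in windows that fell, 5 in those without a call and 7.5 in those that rose, and those of replicate 2 numbered 8, 5 and 5. The calls depended on single lists. Without control 2 there were 25 lower and no higher windows, without control 1 there were 174 and 28, and without 4-OHT 1 or without 4-OHT 2 there were 0 in either direction (158 lower and 16 higher, and 123 and 98, at an unadjusted p under 0.05, limma). With lengths scaled to each list's total, which moved the median of all windows from -0.053 to 0.050, 75 fell and 54 rose. By number of regions 0 windows were called in either direction (270 lower and 28 higher at an unadjusted p under 0.05, limma), and without the variance trend 38 were lower and 0 higher.

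**Figure D4:**
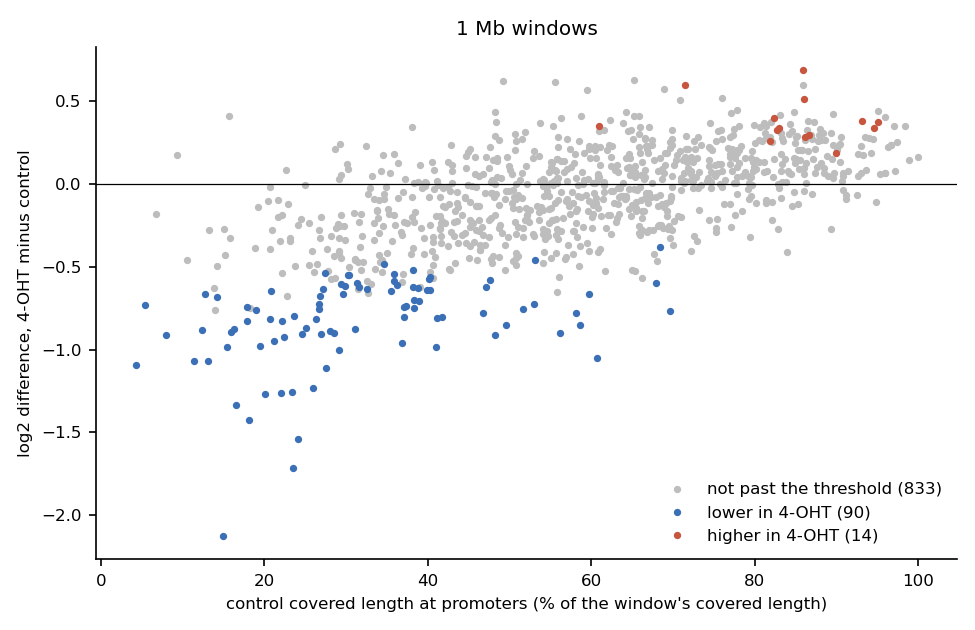
Log2 difference in H3K27ac covered length, 4-OHT minus control (vertical axis), of 937 windows of 1 Mb against the percent of their control covered length at promoters (horizontal axis). The 90 windows called lower (blue) lie mostly at the left, where few covered bases are promoter bases, and the 14 called higher (red) at the right. Both axes draw on the same control lists.

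Windows that fell lay on 17 of the chromosomes. On chromosome 12, 10 of 50 tested windows fell, on chromosome 8, 11 of 65 fell and 3 rose, and on chromosomes 4, 15 and 18 none fell. By whole chromosome, covered length was lower without overlap on 8 of 20 chromosomes and higher on none, with ratios of 4-OHT to control from 0.845 on chromosome 16 to 1.01 on chromosome 7. None of these 20 comparisons could pass a threshold of 0.05 (exact permutation test, smallest p 0.33). Against control 2 alone 18 chromosomes were lower, against control 1 alone 8, and with only 4-OHT 2 or only 4-OHT 1 against both controls 19 and 8. Many lost regions did not always mean a lower window. At 116 Mb of chromosome 11, 14 distal and 5 promoter regions were lost, yet the window had 70.0 and 74.0 kb in the controls and 69.2 and 59.4 kb after 4-OHT and was not called. At 123 Mb of chromosome 8, around Irf8 and Foxc2, 16 distal regions were lost and the window fell by 0.64 on the log2 scale (39.0 and 52.3 kb against 31.0 and 26.9 kb). The most gained regions lay at 79 and 80 Mb of chromosome 10, with 4 distal and 8 promoter regions around Ptbp1 and 6 and 6 around Zbtb7a, both in windows that rose.

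The number of promoters with H3K27ac overlapped between the groups. Of 22367 protein-coding genes, 10562 and 10420 in the controls and 10726 and 10432 after 4-OHT had a region within 2.5 kb of the 5′ end, a mean of 10491 ± 100.4 against 10579 ± 208 (SD, n = 2 each, exact permutation test, p = 0.667). At 9782 genes all 4 lists held one, at 197 both controls alone did and at 151 both 4-OHT lists alone. The lost promoters included Cxcr4, Pdgfrb, Hdac7 and Fli1, an endothelial factor, and the gained ones Gata4, where a region 1.90 kb downstream of the 5′ end had 250 and 125 bp after 4-OHT and lay under H3K27me3 in 3 control lists, Hoxc6 and S100a6. The names come from the gene lists and the ranked territories. Promoter regions outside the kept class were poor in CpG, so this was not particular to lost ones. The median was 7 per 500 bp in lost, gained and mixed regions alike and 29 in kept ones. The letters GGGCGGG, to which Sp and Klf factors bind, stood in 14.2% of lost, 40.4% of kept and 20.1% of gained promoter regions. For the Ets letters CCGGAAG the shares were 3.33%, 16.6% and 5.13%, and for the T-box letters 13.1%, 7.68% and 10.3%. Of all promoter regions 29.2%, 11.3% and 9.63% held the Sp and Klf, Ets and T-box letters.

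Lost, kept and gained distal regions differed in position and sequence. The median distance to the nearest protein-coding 5′ end was 52.2 kb for lost, 29.6 kb for kept and 19.4 kb for gained regions. Their median widths were 475, 1225 and 300 bp. The AP-1 letters stood in 9.91% of lost regions (95% exact binomial interval 9.06 to 10.8, counting error only), in 20.3% of kept (19.4 to 21.3) and in 18.7% of gained regions (16.7 to 20.9). Between 500 and 1000 bp in width, the shares were 10.1%, 14.9% and 20.6%. The AP-1 share also went with control 2, at 9.91% of distal regions in control 2 alone and 15.2% of those in control 1 alone. Regions in both 4-OHT lists and control 2 had 13.8%, and those in both 4-OHT lists and control 1 had 20.9%. What part the control 2 library had in the AP-1 difference was not tested. T-box letters were at 10.5%, 12% and 12% of lost, kept and gained regions, GATA letters at 8.43%, 8.16% and 6.16%, and Foxh1 letters at 7.76%, 6.36% and 6.09%, so these differed less between the classes than the AP-1 letters did. H3K27me3, called in at least 2 of the control lists, overlapped 3 of 4600 lost, 21 of 7355 kept and 2 of 1364 gained distal regions.

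FLAG lists, whose names carry a threshold of 1e-06, mark positions of tagged Brg1. Their labels give the same genotype as the H3K27ac samples, whereas the study describes ESCs with a Brg1-FLAG allele. A FLAG region of any list overlapped 21.9% of lost (20.7 to 23.1) and 23% of kept distal regions (22 to 24). It overlapped 0 of 1364 gained ones (0 to 0.270%). A FLAG region in at least 2 lists overlapped fewer lost than kept distal regions, 7.46% and 11.5%. At merged widths of 500 to 1000 bp, a FLAG region of any list overlapped 25.6% of lost (23.3 to 28.0) and 9.47% of kept regions (8.24 to 10.8). This range lies above the median width of lost regions (475 bp) and below that of kept ones (1225 bp), so it does not make the classes alike. FLAG overlap also went with control 2, since 8.04% of distal regions in control 2 alone had it but 1.35% of those in control 1 alone, and 0.719% of those in control 1 and both 4-OHT lists. What part this library had in the difference was not tested. Taken pair by pair, distal regions of 500 to 1000 bp in control 1 had a FLAG region in 36.6% when missing from 4-OHT 1 and in 13.5% when present in it, and in 33.3% and 15.6% against 4-OHT 2. From control 2 the shares were 24.3% and 13.2%, and 23.6% and 15.1%. Over all widths the order was not kept, with 17.9% and 17.3% in the pair of control 1 and 4-OHT 1 and with lower shares among missing regions in the other 3 pairs (14.3% and 20.1%, 14.1% and 21.4%, 12.9% and 23%). At 500 to 1000 bp the AP-1 letters stood in 9.18 to 11% of the missing and 17.1 to 21.2% of the present regions in the 4 pairs, and the median distance was 49.4 to 53.1 kb and 29.8 to 31.7 kb. The 4 pairs share lists and are not independent.

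**Figure D5:**
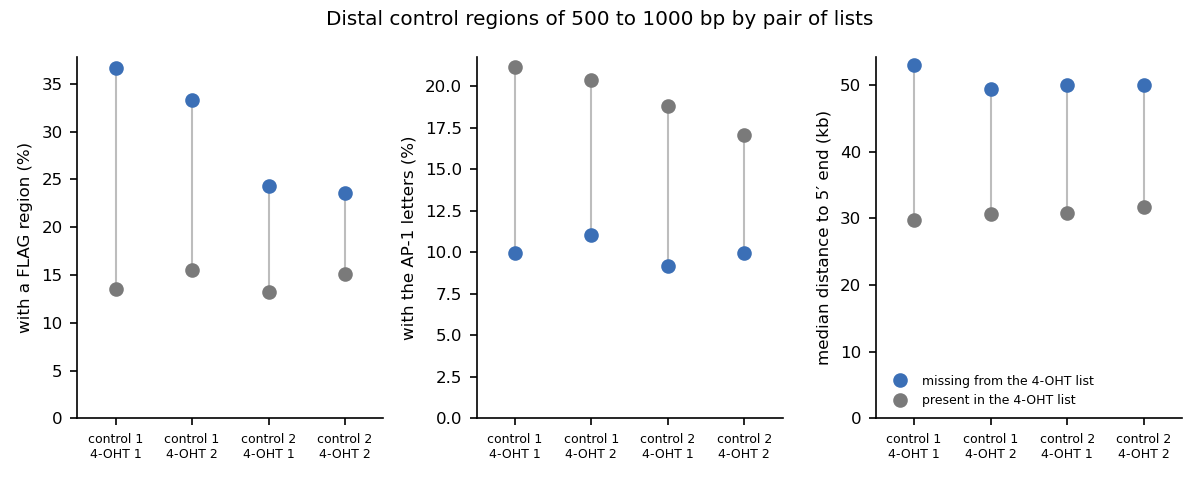
Percent with a FLAG region, percent with the AP-1 letters and median distance to a protein-coding 5′ end in kb (3 panels, vertical axes) of distal control regions 500 to 1000 bp wide, by pair of control and 4-OHT list (horizontal axes), with regions missing from the 4-OHT list in blue and present in it in grey. In each of the 4 pairs missing regions had more FLAG overlap, fewer AP-1 letters and a greater distance.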

How the data were processed

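H3K27ac ChIP-seq was done by the study in biological duplicates at day 4, with and without 4-OHT. Per the labels, whose processing notes name Bowtie and mm9, the authors aligned the reads before deposit. The study describes an input-corrected Poissonian model for its FLAG regions, and the caller of the H3K27ac regions is not given in the sources used here. The names of the deposited lists carry 1e-12 for H3K27ac and 1e-06 for FLAG, read here as thresholds, and there is 1 list for each replicate. The deposited lists hold chromosome, start and end only, with edges on a 25 bp grid and no count or score of reads, so read depth is unknown and weak signal below the caller's threshold does not show. The number of lists, 2 for each condition, limits precision. Separate lists of 1 threshold can differ in length with depth and antibody yield, which moves lost and gained regions.

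Covered bases and regions were counted with Python 3.11.15, NumPy 2.4.6 and pysam 0.24.0, with GENCODE M1 gene models of mm9. A promoter region had an edge within 2.5 kb of any of 86842 transcript starts. Each base was given to the nearest protein-coding 5′ end within 100 kb (22339 territories) and to 1 Mb windows. Territories with a mean of at least 1000 bp and windows with a mean of at least 10000 bp were tested with limma 3.58.1 in R 4.3.3 on log2(covered bp + 500), with a trend of variance on mean, no block, and Benjamini-Hochberg adjustment at 0.05. A fold change on this scale understates the change of short territories. Single totals were compared with exact two-sided permutation tests in SciPy 1.17.1, whose smallest p for 2 against 2 is 0.33. Binomial intervals are exact at 95% and cover counting error only. Motif letters were searched in the central 500 bp, on both strands. On simulated lengths for 7833 territories, 21 and 39 of 50 changed by -2 and 2 on the log2 scale were recovered, 13 and 14 of 50 changed by -1 and 1, and 3 of 7633 unchanged ones were called. For 937 windows the numbers were 35 and 50, 38 and 46, and 6 of 737.

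Named genes were the 10 lowest and 10 highest territories without overlap, up to 4 members of each gene list with the largest difference, 8 mesoderm genes of interest (Mesp1, Kdr, Cyp26a1, Has2, Sulf1, Cxcr4, Snai1 and Pdgfra), and the genes at the lost and gained regions of greatest width (ranked by mean covered length), extreme windows and most lost, kept or gained regions. Members, gene lists and tests were chosen with earlier results of these data known. The alternatives were pseudocount, filter, scaling, number of regions, variance trend, replicate block, left-out replicates, neighbourhood, window size, promoter distance, overlap, minimum width and joining of regions. Of the gene lists, 2 symbols (Tfcp2l1 and Sox1) had no match. One territory of the 10 lowest and one sequence are not reported here.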

Additional observations from a re-analysis of the deposited data

How the results depend on the processing

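Regions were called in each list at 1 threshold and their depth is unknown, so a lost region may have stayed enriched below it, and 2 lists in each condition give an exact test no p under 0.33. Of 76 named territories under the other settings, 1029 values kept their direction and side of the threshold and 34 passed it where they had not before. With number of regions in place of length, the difference changed sign for Cd69 (-0.21), Snai1 (0.22), Pdgfra (0.24), Gata4 (0.39), Lefty1 (0.29), Jag2 (-0.58), Dpf1 (0.75), Smarcd2 (0.45), Smarca4 (-0.29), Brd2 (-0.016) and Eef1a1 (-0.31). For Smad5 it was 0.062 within 50 kb on each side and 0.042 with territories of at most 25 kb. The cause was not tested.

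Territories called lower and higher by limma numbered 318 and 111 with lengths scaled to the list total and 539 and 337 by number of regions. They stayed at 0 under the other settings run. Windows called lower and higher numbered 41 and 0 without a filter, 24 and 26 with a stricter one, 38 and 0 without the variance trend, and 0 and 0 by number of regions (270 and 28 at an unadjusted p under 0.05, limma). Scaled to the list total 75 and 54 were called. Windows of 2 Mb gave 145 and 14, and windows of 0.5 Mb 63 and 19. With each replicate left out in turn, where a lone sample is assumed to vary like the pair, windows called lower ranged from 0 to 174 and higher from 0 to 28.

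Deviations from the group means correlated at 0.45 for territories and 0.48 for windows between lists of the same replicate number, but 2 pairs do not establish a pairing. With the replicate number as a block, 157 windows were lower and 36 higher and 0 territories passed (1269 lower and 1403 higher at an unadjusted p under 0.05, limma).

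With regions of at least 500 bp, 1749 distal regions were lost, 3086 kept and 494 gained, and 338 promoter regions were lost and 436 gained. With regions within 1 kb joined, 379 promoter regions were gained. With each replicate left out, distal lost ranged from 5252 to 13203, distal gained from 1635 to 6982, promoter lost from 1036 to 2570 and promoter gained from 947 to 3208. Chromosomes with lower covered length ranged from 8 to 19, and by number of regions there were 18. The ratio of promoters called, 1.008, ranged from 0.994 to 1.02.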
